A study of Homo sapiens with 7 samples.

Results

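Pericentromeric peaks were the ChIP-seq peaks of HT1080 cells whose midpoint lay within 4 Mb of the centromere of an autosome in the human genome build hg19. The stretches of chromosome 18 below 15 Mb and of chromosome 19 below 24.4 Mb were left out. This gave 11887 of the 148917 peaks in the 7 libraries, or 7.98% (95% interval 7.85 to 8.12). They were compared with the 117987 autosomal peaks outside these windows. The 16891 peaks in the 2 left-out stretches, over the 7 lists, and the 2152 peaks off the autosomes belong to neither set, but they are part of the total of a list. Between 10 and 140 peaks per library lay within 4 Mb of a centromere and in such a stretch.

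HT1080 is a human fibrosarcoma line. The cells were transfected with small interfering RNA directed at the kinase VRK1 (siVRK1) or with a non-targeting one (siControl). Antibodies against histone H2A phosphorylated on T120 (pT120) and against H2A ubiquitylated on K119 (ubK119) were used after both siRNAs, and an antibody against VRK1 in siControl cells. Unprecipitated input DNA was sequenced after both siRNAs. With 1 library per condition there was no replicate, no p-value could be given, and each ratio compares a pair of libraries. VRK1 was not profiled after siVRK1, so its depletion could not be checked here.

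Pericentromeres flank the centromeres and are built largely of alpha satellite and other tandem repeats packed as heterochromatin. Reference assemblies hold only part of these arrays, so that reads from many copies can pile up on the few copies the assembly contains. Phosphorylation of H2A on T120 is known at mitotic centromeres, where the kinase Bub1 places it and where it helps to recruit shugoshin. VRK1 is a chromatin kinase for which H2A T120 is a reported substrate, and ubiquitylation of K119 is the mark of Polycomb repressive complex 1.

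Library totals ranged from 20687398 reads for siControl pT120 to 40442651 for siControl ubK119, and the lowest deposited peak height was between 12 and 18 reads. The numbers of peaks in different lists are therefore not directly comparable, and shares within a list are given instead. The siVRK1 pT120 library stood apart, with 42461 peaks against 6665 in siControl pT120. In the windows, its read counts were closest to those of siControl ubK119, as described at the end, and those of siVRK1 ubK119 were closest to VRK1 and input. The siControl pT120 and ubK119 libraries were also closest to a library of another antibody. Whether libraries were exchanged or mixed was not tested, and every ratio of siVRK1 to siControl takes the labels as they stand. The pooled share, the pooled input overlap and the locus counts are also given without the siVRK1 pT120 list; the pT120 ratios cannot be. The intervals, here and throughout, are at the 95% level and cover only counting error: the reads were amplified by PCR and carry no molecular identifiers, so they do not count separate molecules. Overlap of 2 intervals does not show that levels are equal.

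In the lists as deposited, the windows held the largest share of the peaks in siControl pT120 and the smallest in siVRK1 pT120. In siVRK1 pT120 2407 of 42461 peaks lay in the windows, or 5.67% (5.45 to 5.89), against 1182 of 6665 in siControl pT120, or 17.7% (16.8 to 18.7). For ubK119 the shares were 10.0% (9.51 to 10.5) of 13818 peaks in siVRK1 and 7.18% (6.89 to 7.48) of 28955 peaks in siControl cells. VRK1 had 9.13% (8.71 to 9.57) of 17531 peaks there. The siVRK1 and siControl inputs had 7.93% (7.57 to 8.30) of 21507 and 8.51% (8.11 to 8.93) of 17980 peaks. Among peaks of at least 20 reads only the first place held. The shares were then 41.5% (39.2 to 43.9) in siVRK1 pT120 and 53.5% (50.4 to 56.6) in siControl pT120, 15% in siVRK1 ubK119 and 23.6% in siControl ubK119, 33.8% in VRK1, and 30.6% (28.8 to 32.4) and 45.4% in the siVRK1 and siControl inputs. With that minimum siVRK1 pT120 lay above its own input, whereas in the full lists it lay below, and the order of the ubK119 libraries was turned too. The minimum of 20 reads was not scaled to the library totals. The lowest height was already 18 reads in siVRK1 ubK119, against 15 in siControl ubK119 and 12 in each pT120 list. The lists were therefore cut to unlike degrees. The shares also move with the length of the list: the siVRK1 pT120 list had the most peaks and the lowest share, and the siControl pT120 list the fewest peaks and the highest share.

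Peaks were not spread evenly along the windows. The densest 1 Mb step lay 2 to 3 Mb from the centromere on the short-arm side, where siVRK1 pT120 had 1.31% and siControl pT120 5.72% of all their peaks. In the same step the shares were 3.44% for siVRK1 ubK119, 2.33% for siControl ubK119, 3.01% for VRK1, and 2.58% and 2.41% for the siVRK1 and siControl inputs. Next to the centromere, the last 1 Mb on the short-arm side held 0.233% (siVRK1 pT120) to 1.08% (siControl pT120) of a list, and the first 1 Mb on the long-arm side held 0.0283% (siVRK1 pT120) to 0.135% (siControl pT120) of a list. The shares were not scaled to the length of assembled sequence in each step.

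**Figure D1:**
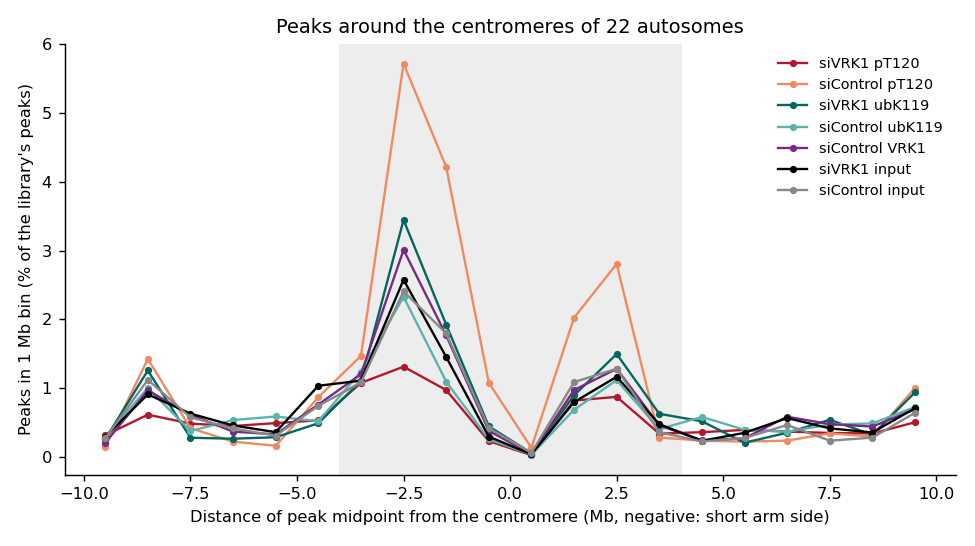
Share of each library's peaks (percent, vertical axis) in steps of 1 Mb by signed distance from the centromere (horizontal axis, negative on the short-arm side), with 1 line per library. Between 2 and 3 Mb on the short-arm side the line of siControl pT120 reaches 5.72% and that of siVRK1 pT120 1.31%.

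Pericentromeric peaks included the highest peaks of every library. The tallest had heights of 27880 reads in siVRK1 pT120 and 17042 in siControl pT120, 22420 in siVRK1 ubK119 and 26337 in siControl ubK119, 25109 in VRK1, and 26177 and 26505 in the siVRK1 and siControl inputs. Outside the windows no peak of these libraries passed 948 reads on the autosomes compared. Of the peaks with at least 100 reads, between 56.3% (siControl pT120, 130 of 231) and 62.3% (siControl ubK119, 195 of 313) were pericentromeric. The input lists gave 59.3% for siVRK1 and 62.0% for siControl cells, so tall peaks were gathered there to a like degree in unprecipitated DNA. The median pericentromeric peak was far lower than the tallest, at 15 reads in siVRK1 pT120 and 18 in siControl pT120. It was 26 reads in siVRK1 ubK119, 19 in siControl ubK119, 19 in VRK1, and 19 and 17 in the siVRK1 and siControl inputs. Outside the windows the medians were 12, 12, 19, 16, 15, 15 and 12 reads in the same order. Pericentromeric peaks were also longer, with medians of 314 to 355.5 bp against 206 to 239 bp outside. Reads inside a library's own pericentromeric peaks made up 0.729% (siControl ubK119) to 1.06% (siControl input) of the library.

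The peaks were concentrated on a few chromosomes. Chromosome 20 held 2070 of the 11887 peaks (17.4%), chromosome 21 held 1526 (12.8%) and chromosome 10 held 1256 (10.6%). In contrast, chromosome 9 had 7, chromosome 18 had 33 and chromosome 15 had 52. The part of the chromosome 18 window below 15 Mb had been left out. Within chromosome 21, the 0.1 Mb steps from 10.8 to 10.9 Mb and from 11.1 to 11.2 Mb held 311 peaks each. A step from 39.1 to 39.2 Mb on chromosome 10 held 292 peaks and one from 33.9 to 34.0 Mb on chromosome 16 held 277. None of these counts was scaled to the length of assembled sequence in a window.

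Peaks of the 7 lists that overlapped by at least 1 bp were joined into 4443 loci, each described by the longest deposited region there. Most loci, 2893 of 4443 (65.1%), were called in 1 library, and 521 (11.7%) in all 7. Loci in all 7 libraries were longer and far higher, with a median length of 793 bp and a median level of 3.25 RPM, the read count scaled to the library total, than those in 1 library, with 219 bp and 0.211 RPM. Of the single-library loci, 1061 came from siVRK1 pT120 and 85 from siControl pT120, 240 from siVRK1 ubK119 and 581 from siControl ubK119, 288 from VRK1, and 376 and 262 from the siVRK1 and siControl inputs. The share of loci found in every library differed between chromosomes. On chromosome 10, 87 of 246 loci were called in all 7 libraries, on chromosome 21 56 of 346, on chromosome 20 38 of 1211 and on chromosome 13 0 of 279. Without the siVRK1 pT120 list there were 3480 loci, of which 2069 (59.5%) were called in 1 library and 551 (15.8%) in all 6.

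The next comparison asked how many pericentromeric peaks were also called in the input of the same siRNA. In the windows 42.8% (40.8 to 44.8) of siVRK1 pT120 peaks overlapped an input peak, against 2.08% of those outside the windows. For siControl pT120 the shares were 81.1% (78.8 to 83.3) in the windows and 18.7% outside. ubK119 peaks overlapped input in 73.5% (71.1 to 75.8) of cases in the windows and 13.7% outside after siVRK1, and in 51.8% (49.6 to 54.0) and 4.60% in siControl cells. VRK1 peaks did so in 63.4% (61.0 to 65.8) of cases in the windows and 10.5% outside. In every antibody library the pericentromeric share was more than 4 times the share elsewhere. Pooled over the 5 antibody lists it was 58.9% (57.9 to 59.9), and 65.1% without the siVRK1 pT120 list. Among peaks of at least 20 reads, the share was 80.7% (77.6 to 83.5) in siVRK1 pT120 and 94.5% in siControl pT120, 74.9% in siVRK1 ubK119 and 71.9% in siControl ubK119, and 80.8% in VRK1, so the low place of siVRK1 pT120 was not kept. The inputs overlapped each other in like manner: 59.5% of siVRK1 input peaks in the windows and 11% outside met a siControl input peak.

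**Figure D2:**
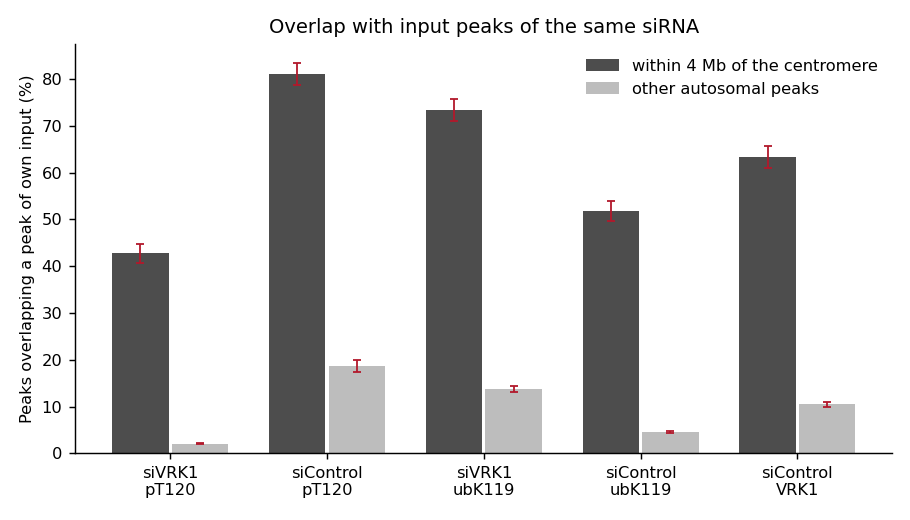
Share of the peaks of each antibody library that overlap a peak of the input of the same siRNA (percent, vertical axis from 0), in the windows and on the other autosomal sequence; error bars are exact 95% binomial intervals. In the windows the shares lie between 42.8% (siVRK1 pT120) and 81.1% (siControl pT120), and elsewhere between 2.08% and 18.7%.

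Peaks outside either input numbered 1220 in siVRK1 pT120 and 140 in siControl pT120, 331 in siVRK1 ubK119 and 849 in siControl ubK119, and 408 in VRK1. Leaving out input peaks removed most of what the lists shared. Of the siVRK1 pT120 peaks in the windows, 846 of 2407 (35.1%) overlapped a siControl pT120 peak, but of those outside inputs only 18 of 1220 (1.48%). Beyond the windows these shares were 1.41%, and 0.178% outside inputs. In the other direction the counts were 938 of 1182 siControl pT120 peaks (79.4%) and 25 of the 140 outside inputs (17.9%). Beyond the windows those shares were 14.7%, and 2.57% outside inputs. The siVRK1 pT120 peaks outside inputs met siControl ubK119 peaks in 139 of 1220 cases (11.4%), against 2.03% beyond the windows. In turn 161 of the 849 siControl ubK119 peaks outside inputs (19%) met a siVRK1 pT120 peak, against 3.37% beyond the windows. The siControl ubK119 list was the longer one, and seen from the siControl side the shares of 17.9% for pT120 and 19% for ubK119 were close. The ubK119 lists shared 946 of 1383 siVRK1 peaks (68.4%), and 65 of 331 (19.6%) outside inputs, against 17.0% and 11.5% beyond the windows.

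VRK1 peaks in the windows overlapped a siControl pT120 peak in 853 of 1601 cases (53.3%) and a siControl ubK119 peak in 985 (61.5%). Outside inputs the counts were 25 of 408 (6.13%) for pT120 and 68 of 408 (16.7%) for ubK119. Outside inputs and beyond the windows the shares were 1.87% for pT120 and 5.63% for ubK119. Of the 2513 loci outside both inputs, 2255 were called in a single antibody library and 2 in all 5.

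The 6 highest loci, ranked by mean RPM over the 7 libraries, are given with their level in each library because they carry much of the pericentromeric signal. They held 50.7% to 54.7% of the reads that a library had in the 521 loci common to all. The highest was chr1:121483973-121485649. It had 1474 RPM in siVRK1 pT120 and 1595 RPM in siControl pT120, 1499 RPM in siVRK1 ubK119 and 1287 RPM in siControl ubK119, 1543 RPM in VRK1, and 1576 and 1958 RPM in the siVRK1 and siControl inputs. The siControl input was thus higher than any antibody library. The ratios of siVRK1 to siControl were 0.924 (0.912 to 0.937) for pT120, 1.16 (1.15 to 1.18) for ubK119 and 0.805 (0.795 to 0.815) for input.

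The locus with the next highest level, chr10:42373709-42397416, differed more between libraries. It had 471 RPM in siVRK1 pT120 and 777 RPM in siControl pT120, 971 RPM in siVRK1 ubK119 and 516 RPM in siControl ubK119, 873 RPM in VRK1, and 1019 and 1044 RPM in the siVRK1 and siControl inputs. siVRK1 pT120 and siControl ubK119 were the low libraries, at 0.462 and 0.494 of their inputs, and the other antibody libraries stood between 0.744 and 0.953. Between siVRK1 and siControl cells the ratio was 0.605 (0.592 to 0.619) for pT120, 1.88 (1.85 to 1.92) for ubK119 and 0.976 (0.960 to 0.991) for input.

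The other 4 of the 6 were chr6:58773507-58779512, chr19:27731775-27740791, chr18:18510887-18520553 and chr7:61968151-61972174. Their pT120 ratios lay between 0.888 and 0.986, their ubK119 ratios between 1.10 and 1.21 and their input ratios between 0.809 and 0.836. At chr6:58773507-58779512 siVRK1 and siControl pT120 had 687 and 774 RPM, siVRK1 and siControl ubK119 659 and 563 RPM, VRK1 725 RPM, and the siVRK1 and siControl inputs 692 and 855 RPM. In all 6 loci the siControl antibody libraries lay below the siControl input.

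**Figure D3:**
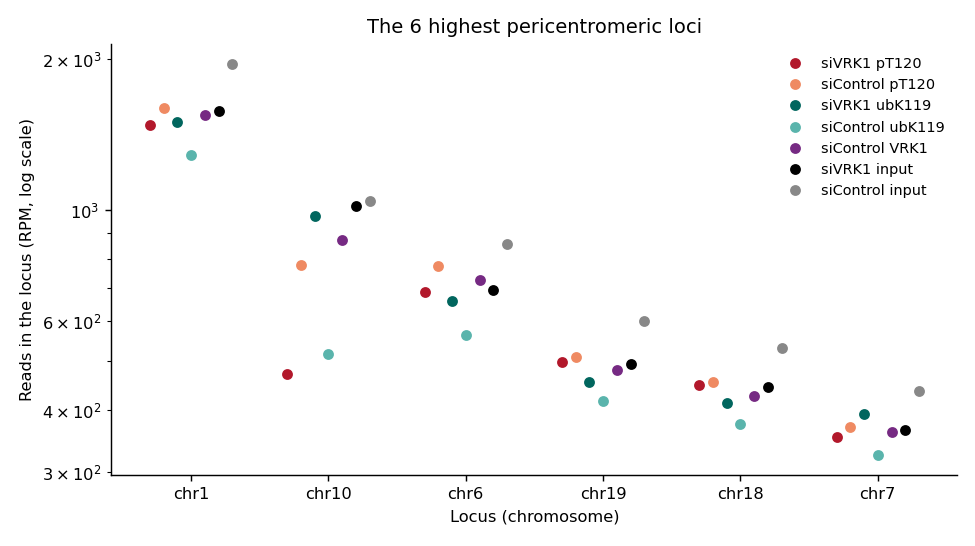
Level (RPM, logarithmic vertical axis) of the 6 highest pericentromeric loci in each of the 7 libraries, 1 point per library. The siControl input is the highest point at every locus, and at the chromosome 10 locus siVRK1 pT120 (471 RPM) and siControl ubK119 (516 RPM) lie below the rest.

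Over the 521 loci called in all libraries, the pT120 ratio of siVRK1 to siControl had a median of 0.797 and lay below 1 at 366 loci and above 1 at 155. The ubK119 ratio had a median of 1.37, with 107 loci below 1 and 414 above. The input ratio had a median of 0.901, with 349 below and 172 above. Relative to their own input, median levels were 0.787 for siVRK1 pT120 and 0.848 for siControl pT120, 1.0 for siVRK1 ubK119 and 0.665 for siControl ubK119, and 0.891 for VRK1. These loci were called in the libraries that are compared, so the values are a description.

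Regions called with the VRK1 antibody gave a choice that used neither library of a pair. Those with no more than 100 reads in either input were compared, 1275 in the windows and 13055 outside. In the windows pT120 had 713 RPM in siVRK1 and 959 RPM in siControl cells, a ratio of 0.744 (0.731 to 0.758). Outside the windows the levels were 1758 and 3712 RPM and the ratio was 0.474 (0.469 to 0.479). pT120 was lower in the siVRK1 library in both sets of VRK1 regions, and the pericentromeric ratio was nearer to 1. The input ratio was 0.986 (0.971 to 1.0) in the windows and 1.18 (1.17 to 1.19) outside. Divided by it, the pT120 ratio was 0.755 in the windows and 0.400 outside. The undivided pT120 ratio depended on the list that gave the regions. At regions of the siVRK1 ubK119 list it was 0.695 in the windows and 0.396 outside. At regions of the siControl ubK119 list it was 0.886 and 0.811. At pericentromeric regions outside both inputs it was 0.381 for the 331 of siVRK1 ubK119. For the 849 of siControl ubK119 it was 0.999 (0.961 to 1.04).

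For ubK119 the pericentromeric VRK1 regions had 1097 RPM in siVRK1 and 778 RPM in siControl cells. This was a ratio of 1.41 (1.39 to 1.43), against 1.71 (1.70 to 1.72) outside the windows. After division by the input ratio, the values were 1.43 in the windows and 1.44 outside. The distance between the ubK119 ratios was thus as large as that between the input ratios, and the pT120 ratios remained apart. Regions called in either input gave 0.779 (windows) and 0.538 (elsewhere) for pT120, and 1.34 and 1.58 for ubK119. The direction of the ubK119 ratio depended on the list that gave the regions. At regions of the siControl pT120 list it was 1.41 in the windows and 1.64 outside. At regions of the siVRK1 pT120 list it was 1.05 and 0.663. At pericentromeric regions outside both inputs it was 1.54 for the 140 of siControl pT120. For the 1220 of siVRK1 pT120 it was 0.627 (0.608 to 0.648).

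Counts of single regions gave the same order. Over all VRK1 regions with no more than 100 reads in either input and at least 20 in the pair, 31.3% of 3323 had a pT120 ratio below 0.5 and 2.32% one above 2. These include 1448 regions of the left-out stretches and 175 off the autosomes; over the windows and the rest alone the shares were 34.6% and 2.53% of 1700. In the windows 150 of 717 (20.9%, 18 to 24.1) lay below 0.5, against 439 of 983 (44.7%) outside, and 22 of 717 (3.07%) lay above 2, against 21 of 983 (2.14%). For ubK119, 33% of all tested regions had a ratio above 2 and 2.4% one below 0.5, and over the windows and the rest alone 38.9% and 2.21%. In the windows 257 of 986 (26.1%, 23.3 to 28.9) lay above 2, against 1735 of 4131 (42.0%) outside, and 38 of 986 (3.85%) lay below 0.5, against 75 of 4131 (1.82%). For input, 9.5% of all tested regions lay above 2 and 2.88% below 0.5, and over the windows and the rest alone 12.3% and 3.02%. In the windows 72 and 33 of 904 did. Pericentromeric regions were therefore under the background share for the common direction of each mark.

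The ratios differed with the number of input reads in the region. In the windows the pT120 ratio was 0.480 (0.444 to 0.518) at the 286 VRK1 regions with up to 10 reads in either input, and 0.652 (0.622 to 0.684) at the 383 with 11 to 20. It was 0.793 (0.769 to 0.817) at the 408 regions with 21 to 50 reads and 0.873 (0.867 to 0.879) at the 32 regions with over 1000. Outside the windows the first of these classes had 0.462 (0.455 to 0.469), whose interval meets that of the windows, and the second had 0.452 (0.443 to 0.461), whose interval does not. With 21 to 50 input reads, 731 regions outside the windows had 0.493 (0.479 to 0.507), and the pericentromeric ratio was higher there by more than counting error. The ratio was higher with more input reads outside the windows too, at 0.611 (0.589 to 0.634) for 51 to 100 reads, 0.675 (0.663 to 0.688) for over 100 and up to 1000 and 0.724 (0.702 to 0.746) above 1000, against 0.786, 0.802 and 0.873 in the windows for the same classes.

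The ubK119 ratio ran the other way, with 1.58 (1.49 to 1.67) at pericentromeric regions of at most 10 input reads, 1.38 (1.34 to 1.41) at 21 to 50 and 1.3 (1.29 to 1.31) above 1000. The input ratio in these classes was 1.07 (0.999 to 1.15), 0.971 (0.946 to 0.997) and 0.866 (0.860 to 0.871). The classes were formed on the larger of the input counts, so these input ratios are a description. VRK1 regions outside both inputs, 408 in the windows and 10473 elsewhere, had pT120 ratios of 0.478 (0.451 to 0.507) in the windows and 0.452 (0.446 to 0.458) elsewhere. Their ubK119 ratios were 1.59 (1.52 to 1.66) and 1.74, and their input ratios 1.20 and 1.18. At VRK1 regions that unprecipitated DNA did not also yield, the 2 sets thus had pT120 ratios whose intervals overlap.

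The ratios also differed with distance from the centromere. The pT120 ratio at VRK1 regions was 0.939 (0.867 to 1.02) within 1 Mb, at 39 regions, and 0.830 (0.804 to 0.857) from 1 to 2 Mb, at 350. From 2 to 3 Mb it was 0.709 (0.690 to 0.728), at 614 regions, and from 3 to 4 Mb 0.587 (0.556 to 0.620), at 272. The ubK119 ratio was 1.13, 1.35, 1.44 and 1.55 over the same steps outwards, and the input ratio 0.774, 0.912, 1.05 and 1.05. Each mark thus came nearer to its ratio outside the windows with distance, and the input ratio moved with them; its part in the difference was not tested. On the short-arm side 880 regions had a pT120 ratio of 0.687 and a ubK119 ratio of 1.49, against 0.875 and 1.24 at 395 regions on the long-arm side.

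Among the 15 chromosomes with at least 20 such regions in the windows, the pT120 ratio was below 1 on 13 and the ubK119 ratio above 1 on 15. The pericentromeric pT120 ratio was above that of the rest of the same chromosome on 14 of 15, with intervals apart on 12. Chromosome 4 was the exception, with 0.460 (0.404 to 0.522) in the windows and 0.645 (0.606 to 0.687) outside, and there the ubK119 ratio was also the higher one in the windows, at 1.88 (1.71 to 2.07) against 1.35 (1.29 to 1.42). The pT120 ratio was lowest on chromosome 17, at 0.433 (0.404 to 0.464), where the input ratio was the highest, at 1.39 (1.31 to 1.47). It was highest on chromosome 5, at 1.02 (0.918 to 1.14), where the input ratio was the lowest, at 0.782 (0.706 to 0.866). On chromosomes 20 and 21, which held the most peaks, the pT120 ratios in the windows were 0.606 (0.576 to 0.638) and 0.718 (0.685 to 0.753).

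**Figure D4:**
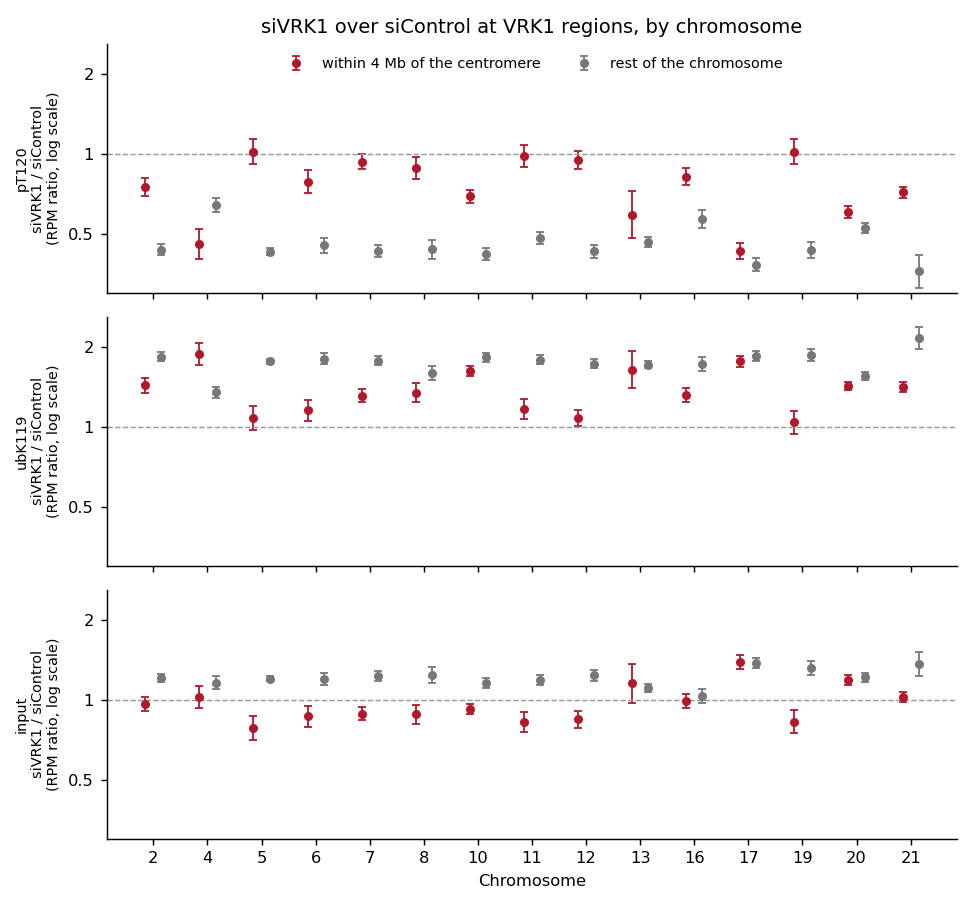
Ratio of siVRK1 to siControl for pT120, ubK119 and input (logarithmic axis) at VRK1 regions in the windows and on the rest of each chromosome, with exact 95% intervals. The pT120 points in the windows run from 0.433 on chromosome 17 to 1.02 on chromosome 5, and chromosome 4 alone has its pericentromeric point below that of the rest.

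Levels over input were then taken for each antibody. At the pericentromeric VRK1 regions with at most 100 input reads, pT120 stood at 0.706 of its input in siVRK1 and 0.936 in siControl cells, and ubK119 at 1.09 in siVRK1 and 0.760 in siControl cells. Elsewhere the values were 0.444 and 1.11 for pT120 and 1.20 and 0.831 for ubK119. At pericentromeric VRK1 regions outside both inputs pT120 stood at 0.524 in siVRK1 and 1.32 in siControl cells, and ubK119 at 1.40 and 1.06. Regions outside both inputs were chosen for having no input peak, and input reads are the divisor. Their levels over input therefore depend on the choice and are a description. In the windows the level of siControl pT120 over input differed with the number of input reads, at 1.32 (1.23 to 1.43) for up to 10, 1.05 for 11 to 20 and 0.912 (0.885 to 0.940) for 21 to 50. These classes were formed on input reads, which are also the divisor here, so nothing is concluded from the fall across them. The siControl pT120 level was not above input at every set of regions outside inputs. At the 1220 such pericentromeric regions of the siVRK1 pT120 list it stood at 0.936 (0.902 to 0.971).

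VRK1 was measured over input at regions called with the siControl ubK119 antibody. In 1754 pericentromeric regions VRK1 had 1109 RPM and the siControl input 1161 RPM, a ratio of 0.955 (0.940 to 0.970), against 1.17 (1.16 to 1.18) at 23169 regions elsewhere. At the regions outside both inputs the ratios were 1.15 (1.11 to 1.20) in the windows and 1.18 elsewhere. The levels over input of such regions, here and below, again depend on the choice by input. At regions of the siControl pT120 list VRK1 stood at 0.953 of input in the windows and 1.24 elsewhere, and at the 140 pericentromeric ones outside both inputs at 1.5. The value depended on the list that gave the regions: at the 1220 pericentromeric regions of the siVRK1 pT120 list outside both inputs, VRK1 stood at 0.880 (0.851 to 0.909) of input.

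The pericentromeric peaks outside inputs with the greatest height in each antibody list gave 2 loci called with all 5 antibody libraries and in neither input. At chr6:63297995-63298206 there were 32 reads in siVRK1 pT120 and 18 in siControl pT120, 23 in siVRK1 ubK119 and 35 in siControl ubK119, 31 in VRK1, and 5 and 3 in the siVRK1 and siControl inputs. Every antibody library was above its input there, from 5.10 times for siVRK1 ubK119 to 8.67 times (2.71 to 44.3) for VRK1. The locus was picked as an antibody peak outside inputs, so its levels over input depend on the choice and are a description. The ratios of siVRK1 to siControl were 1.02 (0.556 to 1.93) for pT120 and 0.887 for ubK119. At chr12:32732074-32732416 the counts were 27 and 25 for siVRK1 and siControl pT120, 21 and 41 for siVRK1 and siControl ubK119, 24 for VRK1, and 7 and 11 for the inputs in the same order. The pT120 ratio was 0.620 (0.346 to 1.11), so at neither locus did pT120 differ beyond counting error.

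Other loci of this kind were high in siVRK1 pT120 and siControl ubK119 together. At chr20:29628505-29629633 siVRK1 and siControl pT120 had 108 and 13 reads, siVRK1 and siControl ubK119 25 and 65, VRK1 25, and the inputs 27 and 28. At chr21:11063452-11064175 the counts were 67 and 9 for pT120, 3 and 32 for ubK119, 13 for VRK1, and 9 and 12 for the inputs. The pT120 ratios were 4.77 (2.67 to 9.25) and 4.27 (2.12 to 9.75), the ubK119 ratios were 0.519 (0.313 to 0.835) and 0.126, and both loci had been picked as high siVRK1 pT120 peaks. At chr21:11148199-11149208, picked as a high siControl ubK119 peak, the counts were 64 and 23 for pT120, 20 and 64 for ubK119, 42 for VRK1, and 23 and 15 for the inputs. There the pT120 ratio of 1.60 (0.978 to 2.70) had an interval that includes 1, and the ubK119 ratio was 0.422 (0.242 to 0.706).

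The reverse pattern was seen at loci picked as high siVRK1 ubK119 peaks. At chr17:21220293-21220899 siVRK1 and siControl pT120 had 3 and 22 reads, siVRK1 and siControl ubK119 59 and 16, VRK1 28, and the inputs 22 and 8. At chr20:24778255-24779734 the counts were 10 and 27 for pT120, 159 and 93 for ubK119, 51 for VRK1, and 58 and 40 for the inputs. The ubK119 ratios were 4.98 (2.83 to 9.26) and 2.31 (1.77 to 3.01), and the pT120 ratios 0.0783 (0.0150 to 0.261) and 0.213 (0.0918 to 0.453). At these 5 loci the pT120 and ubK119 ratios lay on opposite sides of 1.

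The remaining loci of this kind ranged widely in their level over input. Each was picked as a high antibody peak outside inputs, so these levels depend on the choice and are a description. A siControl pT120 peak at chr6:62284522-62284916 overlapped no input peak itself, but the locus joined from overlapping peaks was called in all 7 libraries. It had 28 and 23 reads in siVRK1 and siControl pT120, 48 and 43 in siVRK1 and siControl ubK119, 48 in VRK1, and 7 in each input, so that VRK1 stood at 5.76 times (2.59 to 15.1) its input. At chr21:11072365-11072726 the pT120 ratio was 0.464 (0.248 to 0.857), from 21 reads in siVRK1 and 26 in siControl cells; siControl pT120 stood at 4.83 times (2.04 to 13.2) its input. The high VRK1 peak at chr13:20561799-20562189 had 23 VRK1 reads, 3.22 times (1.27 to 9.66) its input, and the one at chr3:90340787-90341127 had 22, or 1.85 times (0.839 to 4.37). At chr20:25006620-25007162, picked from the siVRK1 ubK119 list, the ubK119 ratio was 1.31 (0.764 to 2.23).

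The loci with the most extreme pT120 ratios, among 354 VRK1 loci with at least 40 pT120 reads, were chosen for their ratio and carry no test. The lowest were chr8:46947616-46948067, with 9 reads in siVRK1 and 31 in siControl pT120 and a ratio of 0.167 (0.0698 to 0.359), chr12:38535606-38536073, with 16 and 49 reads, and chr20:29610891-29611627, with 21 and 59 reads. At these 3 loci the input ratio was 2.23, 2.34 and 2.36, so the siVRK1 input was higher than the siControl input at each; its part in the low pT120 ratios was not tested. The highest pT120 ratios were 5.74 (2.30 to 18.4) at chr21:11104411-11105288, with 50 and 5 reads, 5.55 (2.40 to 15.7) at chr6:57404673-57405559, with 58 and 6, and 3.51 (1.72 to 8.08) at chr8:43818916-43819320, with 55 and 9.

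Among 488 VRK1 loci with at least 40 ubK119 reads, the lowest ubK119 ratio was 0.242 (0.119 to 0.450) at chr20:29632502-29633663, with 12 reads in siVRK1 and 67 in siControl ubK119. Next came chr5:46325754-46326127, with 8 and 35 reads and a ratio of 0.308 (0.124 to 0.677), and chr20:26269393-26269783, with 8 and 32 reads and a ratio of 0.337 (0.134 to 0.747). At the chromosome 5 locus the input ratio was as low, at 0.337 (0.144 to 0.731). The highest was 6.75 (3.77 to 13.0) at chr21:9700210-9700561, with 70 and 14 reads, followed by 5.57 (2.52 to 13.9) at chr2:91956218-91956596, with 33 and 8. The locus chr17:21220293-21220899, named above, had the third highest.

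Over the 521 loci called in all libraries, the ratio of siVRK1 to siControl for pT120 ran against that for ubK119. On the log2 scale Pearson's r between them was -0.69, and -0.57 over the 229 loci with no more than 100 reads in either input. The pT120 ratio had an r of -0.37 with the input ratio. These are descriptions across loci that share the same 6 libraries and their depths, not a test over samples. Levels (log2 RPM) of siVRK1 pT120 were closest to those of siControl ubK119, with r = 0.971 over the 521 loci, against 0.949 with siControl pT120. Over the 229 loci with few input reads these values were 0.747 and 0.548. siVRK1 ubK119 was closest to VRK1 (0.984) and the siVRK1 input (0.982) and stood at 0.955 with siControl ubK119. In siControl cells pT120 was closest to VRK1 (0.985), against 0.949 with siVRK1 pT120. The siControl ubK119 library was about equally close to siControl pT120 (0.972) and siVRK1 pT120 (0.971), against 0.955 with siVRK1 ubK119. Over the 229 loci with few input reads it was closest to siVRK1 pT120 (0.747). There it had 0.675 with siControl pT120 and 0.591 with siVRK1 ubK119. The pT120 and ubK119 libraries of both siRNAs therefore each resembled a library of another antibody more than the other library of their own antibody.

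**Figure D5:**
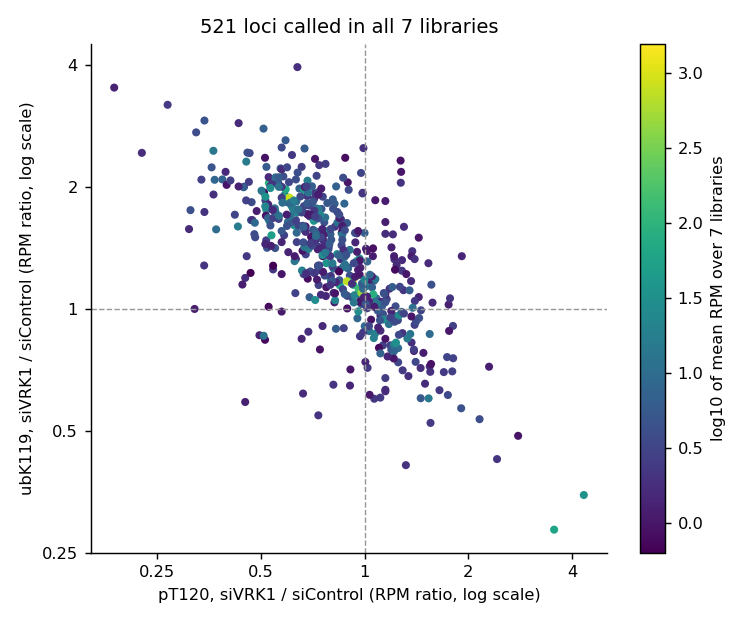
Ratio of siVRK1 to siControl for pT120 (horizontal) against that for ubK119 (vertical) at the 521 loci called in all 7 libraries, on log2 axes, 1 point per locus. Most loci lie at low pT120 and high ubK119 ratios, and the cloud slopes downwards (r = -0.69).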

How the data were processed

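Chromatin of HT1080 cells was immunoprecipitated and sequenced in 7 libraries, 1 per condition, with groups taken from their titles. Bowtie 0.12.8, CASAVA 1.8.2 and Partek, and the build hg19, are listed in the submitters' processing notes with no role. Column names carry the string -a_b_st_m1v2, for which the sources used here give no meaning; how reads with several matches, common in repeats, were placed is therefore not known, and it bears on every level near a centromere. Duplicate handling and any use of input in peak calling are not given either.

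Each deposited list gives the peaks called in 1 library and, per the file headers, the raw read count of every library in those regions. The deposited peak height is a signal, the largest number of extended reads in the peak, and was also deposited as RPM of the library total. The p-value of the authors' caller was not used to filter. Overlaps between lists were taken from the deposited percent of a region covered by the peaks of another library. Those of window peaks with the input of the same siRNA were also computed from positions, and 0 calls differed. The count in a region lay below the height in 12.3% to 18.2% of members, since heights use extended reads.

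Library totals were recovered as height divided by RPM. Members, loci, shares and ratios were computed with Python 3.11.15, pandas 2.3.3 and scipy 1.17.1. Shares have exact Clopper-Pearson 95% intervals. Ratios of summed RPM have exact conditional binomial 95% intervals. Where no other set is named, they use regions with no more than 100 reads in either input. Regions outside inputs, classes of more input reads and the highest loci had no such limit. A level of 3 reads was 0.0742 to 0.145 RPM. The calculation of the ratio and its interval was tested on simulated reads that had counting error only. Single regions needed 20 reads in the pair, with a fold of 2. Named loci were the 6 highest by mean RPM, the 3 highest peaks per antibody list outside both inputs, and the 3 lowest and 3 highest ratios among VRK1 loci with 40 reads in the pair. The members and lists were chosen with earlier results of these data known. Alternatives changed the window, height minimum, overlap, input filter, scaling and chromosomes. Positions are printed as deposited (hg19), and the lists pair no gene with a peak. Peaks off the autosomes entered only the totals of the lists and the counts over all tested regions.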

Additional observations from a re-analysis of the deposited data

How the results depend on the processing

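No paired analysis was possible because each condition had 1 library, so no fit with a replicate block exists. With a window of 2 Mb, the share of all peaks in the windows was 2.79% in place of 7.98%, the overlap with input 77.8% in place of 58.9%, the pT120 ratio at VRK1 regions 0.845 in place of 0.744, the ubK119 ratio 1.32 in place of 1.41, the input ratio 0.894 in place of 0.986 and VRK1 over input at siControl ubK119 regions 0.867 in place of 0.955. With peaks of at least 20 reads these 6 values were 27.3%, 79.0%, 0.800, 1.38, 0.952 and 0.932. Keeping the stretches of chromosomes 18 and 19 gave a share of 8.28% and an overlap of 57.0%. An overlap of at least 0.5 of the shorter region gave 57.1%. Chosen after seeing the data, leaving out the siVRK1 pT120 list gave a share of 8.91% and an overlap of 65.1%, and leaving out chromosome 20 gave 6.90% and 65.5%.

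With any number of input reads the pT120, ubK119, input and VRK1 ratios were 0.841, 1.34, 0.904 and 0.873, and as medians of single regions 0.781, 1.48, 0.958 and 0.933. Outside both inputs they were 0.478, 1.59, 1.20 and 1.15, which turned the direction of the VRK1 ratio. These regions were chosen by input, which is also the divisor of that ratio, so nothing is concluded from the turn. The interval of the input ratio had included 1. Divided by the same ratio outside the windows they were 1.57, 0.824, 0.833 and 0.819, which set the windows against the rest and are not ratios of siVRK1 to siControl. Without chromosome 20 the VRK1 ratio was 0.917. Divided by the input ratio, pT120 was 0.755 and ubK119 1.43. The cause of these moves was not tested. Ratios of named loci with fewer than 20 reads in 1 library have intervals spanning several fold, and depth limits what they show.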

Other observations

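A locus chosen after its values were seen, chr8:43092681-43095472, departed from the other high loci. It had 5214 reads in siVRK1 pT120 and 844 in siControl pT120, or 145 and 40.8 RPM, a ratio of 3.55 (3.30 to 3.82). The ubK119 libraries had 498 reads in siVRK1 and 2359 in siControl cells, or 16.6 and 58.3 RPM, a ratio of 0.285 (0.258 to 0.314). VRK1 had 32.6 RPM, and the siVRK1 and siControl inputs 58.4 and 65.9 RPM. The neighbouring locus chr8:43095705-43097171 had pT120 and ubK119 ratios of 4.33 (3.89 to 4.82) and 0.347 (0.299 to 0.401), with an input ratio of 1.05 (0.969 to 1.14). Among the 25 highest pericentromeric loci, 2 had a pT120 ratio above 1 and 1 a ubK119 ratio below 1.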
